A study of Homo sapiens with 6 samples.

Results

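The 7 genes described here encode receptors and ligands of the IL6 cytokine family that signal through gp130. They are IL6ST, LIFR, OSMR, IL6R, IL11RA, LIF and IL11, and they were chosen by name from the family, as the partners of LIFR and OSMR, out of 60612 genes listed in every file. Poly(A) RNA of HCT116, an established cell line from a human colorectal carcinoma, had been sequenced from cells infected with the negative control lentivirus LV-NC (3 libraries) or with LV-SNORA28, a lentivirus that overexpresses the H/ACA small nucleolar RNA SNORA28 (3 libraries). The methods name the GV235 vector for the viruses, both groups shared the parental line, and cells were collected after infection. The comparison asks which members of the family changed when SNORA28 was overexpressed. The sources used here do not say whether the 3 libraries of a group came from separate infections, so p-values measure the spread between these libraries, which may be technical.

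gp130, the product of IL6ST, is the signal-transducing subunit shared by this family. LIF is bound by a heterodimer of gp130 and LIFR, and oncostatin M by gp130 with OSMR or with LIFR. IL6 and IL11 first bind IL6R and IL11RA, which lack a signalling domain of their own, and then recruit gp130. The receptors carry Janus kinases, which phosphorylate STAT3, and SHP2, the product of PTPN11, which links them to the RAS pathway. SOCS3 is induced by STAT3 and shuts the receptor down.

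SNORA28 measured 0.92, 0 and 0.64 FPKM (fragments per unit of transcript length and of mapped fragments) in LV-NC libraries, against 15.01, 13.66 and 15.2 FPKM with LV-SNORA28, the direction the labels give. Small nucleolar RNA is mostly lost when poly(A) RNA is selected, so these values do not give its level in the cell. The libraries had between 24231 and 25771 genes above 0, and between 11664 and 12259 genes with at least 1 FPKM. Read depth is unknown, since the files hold no counts and whole reads could not be recovered from the FPKM steps. Mitochondrially encoded genes took 42.9%, 47.7% and 42.7% of all FPKM in LV-NC libraries, against 38.3%, 37.8% and 35.9% with LV-SNORA28. FPKM values are shares of a library, so this difference accompanies every comparison of levels below, and its part in them was not tested beyond the scaling alternatives. Of 8 colorectal epithelial markers, 6 were above 3 FPKM in all libraries (EPCAM, KRT8, KRT18, KRT19, CDH1 and CDX2) and VIL1 and LGALS4 were near 0. The summed level of the 8 ran from 762.36 to 850.3 FPKM in LV-NC and from 783.95 to 830.35 FPKM in LV-SNORA28. The 6 blood cell markers summed to 1.16 to 2.42 FPKM in LV-NC and 2.46 to 4.12 FPKM in LV-SNORA28, most of it CD68. PTPRC, the pan-leukocyte marker, was at or below 0.08 FPKM in LV-NC and at 0 in LV-SNORA28. CD68 was thus higher in all LV-SNORA28 libraries (adjusted p 0.134 in limma), and its part in the results was not tested. The 6 fibroblast markers summed to 3.23 to 4.52 FPKM in LV-NC and 3.22 to 4.17 FPKM in LV-SNORA28, nearly all of it COL1A1, with COL1A2, DCN and LUM at 0 in all libraries. The 4 endothelial markers summed to at most 0.16 FPKM.

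The promoters of the genes that the results turn on are shown first, because LIFR has several annotated start sites whose sequences differ and because OSMR lies only 237503 bases from it on chromosome 5. Each run is the RefSeq window of 300 bases around a start site, most of it upstream (GRCh38.p14), 5′ to 3′ on the strand of the gene. Capitals mark matches to any of 4 motifs on either strand. TTCNNNGAA is the GAS element that STAT factors bind, and TGANTCA a loose form of the AP-1 site, with any base at its centre. GGGCGG is the GC box and TATAAA the TATA box. RefSeq windows were matched for 6 of the 7 genes, with 3 start sites for LIFR and 2 for IL11RA.
OSMR, chr5:38845762-38846061, plus strand: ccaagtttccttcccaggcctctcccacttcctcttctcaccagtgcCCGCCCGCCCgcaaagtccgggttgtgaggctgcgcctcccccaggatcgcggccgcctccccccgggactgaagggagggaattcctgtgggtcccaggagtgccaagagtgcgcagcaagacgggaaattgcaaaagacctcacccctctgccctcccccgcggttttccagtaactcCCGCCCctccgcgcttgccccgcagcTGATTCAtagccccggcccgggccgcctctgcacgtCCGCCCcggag
LIFR start 1, chr5:38595356-38595655, minus strand: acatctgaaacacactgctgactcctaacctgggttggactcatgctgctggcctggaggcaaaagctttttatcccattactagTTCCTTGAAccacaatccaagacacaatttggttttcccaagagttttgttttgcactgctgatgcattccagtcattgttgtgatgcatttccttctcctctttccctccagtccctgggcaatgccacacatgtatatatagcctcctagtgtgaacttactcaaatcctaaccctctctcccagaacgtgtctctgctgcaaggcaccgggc
LIFR start 2, chr5:38557418-38557717, minus strand: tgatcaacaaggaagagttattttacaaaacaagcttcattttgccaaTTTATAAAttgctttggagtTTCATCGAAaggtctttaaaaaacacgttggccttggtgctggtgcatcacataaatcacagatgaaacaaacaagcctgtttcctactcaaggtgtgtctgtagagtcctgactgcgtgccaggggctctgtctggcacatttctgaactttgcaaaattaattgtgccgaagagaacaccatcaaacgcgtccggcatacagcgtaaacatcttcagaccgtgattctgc
LIFR start 3, chr5:38556597-38556896, minus strand: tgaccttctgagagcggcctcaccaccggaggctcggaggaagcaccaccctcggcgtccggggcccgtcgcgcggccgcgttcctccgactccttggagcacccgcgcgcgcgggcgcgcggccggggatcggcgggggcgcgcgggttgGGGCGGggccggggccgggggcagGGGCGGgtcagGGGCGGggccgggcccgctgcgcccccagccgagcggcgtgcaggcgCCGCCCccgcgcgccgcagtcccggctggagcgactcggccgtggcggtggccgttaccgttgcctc
IL6ST, chr5:55994914-55995213, minus strand: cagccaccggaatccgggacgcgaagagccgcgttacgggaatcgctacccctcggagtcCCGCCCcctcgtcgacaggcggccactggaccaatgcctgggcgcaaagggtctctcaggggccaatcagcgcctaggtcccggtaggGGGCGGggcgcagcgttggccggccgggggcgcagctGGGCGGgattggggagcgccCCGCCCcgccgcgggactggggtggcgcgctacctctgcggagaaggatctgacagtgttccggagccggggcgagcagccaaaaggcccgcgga
IL11, chr19:55370414-55370713, minus strand: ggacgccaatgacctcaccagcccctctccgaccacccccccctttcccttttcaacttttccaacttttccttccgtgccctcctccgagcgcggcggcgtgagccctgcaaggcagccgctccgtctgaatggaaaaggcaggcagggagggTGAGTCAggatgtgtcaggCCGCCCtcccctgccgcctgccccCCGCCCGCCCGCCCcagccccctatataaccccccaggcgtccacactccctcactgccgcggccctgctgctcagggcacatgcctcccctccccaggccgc

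The OSMR window was 67.7% G and C, with 23 CpG dinucleotides, 4 GC boxes and 1 AP-1 match, TGATTCA at position 4 after the start site. IL6ST was 72.7% G and C with 36 CpG dinucleotides and 4 GC boxes. The 3 LIFR windows differed in composition. Start 3 was 81.7% G and C with 51 CpG dinucleotides and 4 GC boxes. Starts 1 and 2 were 47.3% and 42.3% G and C, below the median of 58.67% over 35095 RefSeq promoters, and held no GC box. Start 1 had 2 CpG dinucleotides. They were the only windows of the 9 with a GAS element, TTCCTTGAA at position -165 of start 1 and TTCATCGAA at position -182 of start 2, where 2 overlapping TATA matches also lay. IL6R and IL11 each had an AP-1 match, TGAGTCA. GAS elements were found in 7.66% of all promoter windows, AP-1 matches of this loose form in 7.71%, GC boxes in 44.95% and TATA boxes in 11.53%. A match is a string of letters, and no binding was measured in these libraries.

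For chromatin assays at LIFR, the study listed 3 primer pairs. Matched to the genome, these amplify chr5:38596925-38597094, chr5:38596457-38596626 and chr5:38596071-38596233, that is, regions 1520, 1052 and 666 bases upstream of LIFR start 1. The same regions lie 40279, 39811 and 39425 bases upstream of start 3. A gene-level FPKM does not tell the starts apart, so these data do not show which LIFR promoter was in use.

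In both groups the ligand LIF was the most abundant of the 7 transcripts, followed by OSMR and then IL6ST, and neighbours among these did not overlap. In LV-NC the order went on with IL11RA, IL6R, LIFR and IL11, of which each overlapped the next over the libraries. In LV-SNORA28 it went on with IL6R, LIFR and IL11RA, again overlapping, and IL11 was last and apart from IL11RA. LIFR thus lay at or near the bottom of the receptors in either group, between 0.43 and 1.91 FPKM. FPKM is a level per length, so these orders compare transcripts of different size. In bulk RNA, fewer cells that express a gene and less RNA per cell cannot be told apart.

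**Figure D1:**
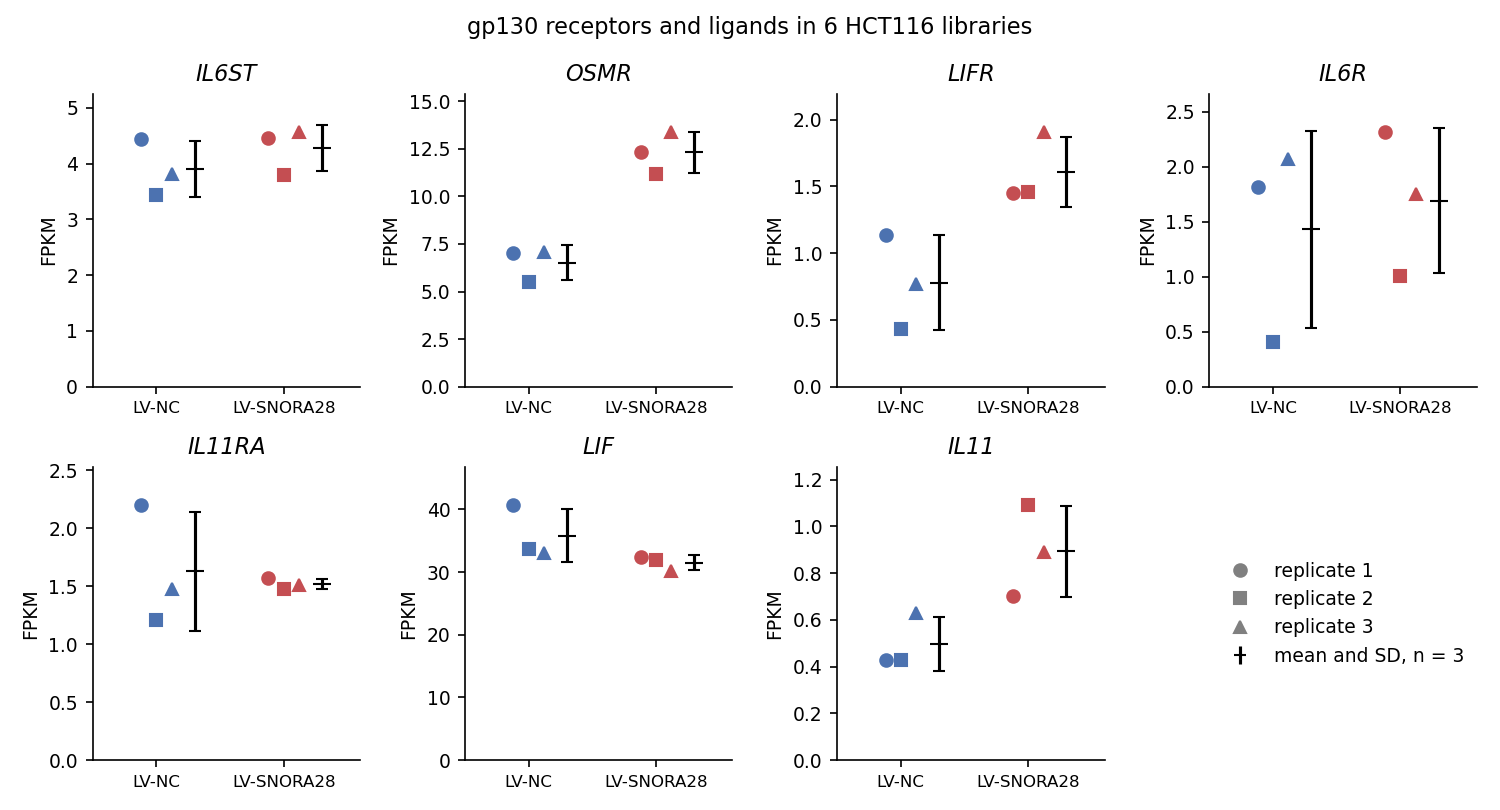
FPKM (y axis, from 0) of the 7 genes in each LV-NC (blue) and LV-SNORA28 (red) library, with a symbol for each replicate and the group mean and SD (n = 3) in black. OSMR, LIFR and IL11 were higher in all LV-SNORA28 libraries, LIF was lower in all of them, and IL6ST, IL6R and IL11RA overlapped.

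Of the 7 genes, OSMR rose, and no other passed the test. Levels were compared with limma on log2(FPKM + 1) over the 12076 genes whose mean reached 1 FPKM, with a call at a Benjamini-Hochberg adjusted p below 0.05. 6 of the 7 passed this filter. IL11 had a mean below 1 FPKM and was read from the same fit over the 32761 genes above 0 in any library, where 1.21% of genes were called. OSMR was the 1 gene called among 6 tested, beside 8.91% of all genes tested that were called in either direction and 6.81% that were called higher. The median log2 fold change of the 6 was 0.15, and that of all genes tested was 0.09. LIFR passed the filter only through its level in LV-SNORA28, so this count and median are descriptions. The groups did not overlap for 3 of the 6 tested members, OSMR, LIFR and LIF, beside 35.1% of all genes tested, and they did not overlap for IL11 either. The study had itself picked out LIFR and OSMR on these samples, so their direction here is not independent evidence of it. The study also reported both genes as higher with overexpression by qRT-PCR and western blotting, assays outside these libraries.

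IL6ST (ENSG00000134352; GRCh38 chromosome 5, 55935095 to 55995022, minus strand), the shared subunit, measured 4.44, 3.44 and 3.82 FPKM in LV-NC libraries, against 4.46, 3.8 and 4.57 FPKM with LV-SNORA28. The groups overlapped, and 1 LV-NC library lay at the level of the higher LV-SNORA28 libraries. The log2 fold change of IL6ST was 0.11 (95% interval -0.14 to 0.36, SE 0.10) and the adjusted p in limma 0.543.

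OSMR (ENSG00000145623; chromosome 5, 38845858 to 38945596, plus strand), the oncostatin M receptor subunit, measured 7.02, 5.48 and 7.08 FPKM in LV-NC libraries, against 12.33, 11.2 and 13.4 FPKM with LV-SNORA28. The lowest LV-SNORA28 library was well above the highest LV-NC library. The means were 6.53 ± 0.907 and 12.3 ± 1.10 FPKM (SD, n = 3), a ratio of 1.89. On the log2(FPKM + 1) scale the fold change was 0.83 (95% interval 0.56 to 1.09, SE 0.11) and the adjusted p in limma 0.0112. Only 1.04% of all genes tested had a higher log2 fold change. OSMR was the receptor with the highest level of the 5 in both groups.

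LIFR (ENSG00000113594; chromosome 5, 38474668 to 38608354, minus strand), the LIF receptor subunit, measured 1.14, 0.43 and 0.77 FPKM in LV-NC libraries, against 1.45, 1.46 and 1.91 FPKM with LV-SNORA28. All LV-SNORA28 libraries lay above all LV-NC libraries, and the LV-NC libraries were widely spread for so low a gene. The means were 0.780 ± 0.355 and 1.61 ± 0.263 FPKM (SD, n = 3), a ratio of 2.06. The log2 fold change was 0.57 (95% interval 0.17 to 0.96, SE 0.16), the raw p was 0.0118 and the adjusted p was 0.0817 in limma, so LIFR did not pass the test over all genes. The pseudocount of 1 FPKM is near the level of LIFR and understates its ratio. With a pseudocount of 0.1 FPKM the log2 fold change was 1.03 and the adjusted p was 0.102.

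The study's threshold was a p below 0.05 together with a change of more than 1.5 times. Only its cut-offs were used here, on raw p and fold of the limma fits, and the study's own test and measure may differ. With a pseudocount of 1 this threshold was passed by OSMR and by none of the other 6, beside 3.79% of all genes tested. LIFR missed it by its fold, which was 1.48 on the log2(FPKM + 1) scale. With a pseudocount of 0.1 LIFR and IL11 passed too, 3 of the 7 in all. The share of all genes that passed at this pseudocount was not counted, so the 3 are a description only.

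IL6R (ENSG00000160712; chromosome 1, 154405193 to 154469450, plus strand), the IL6-binding subunit, measured 1.82, 0.41 and 2.07 FPKM in LV-NC libraries, against 2.32, 1.01 and 1.75 FPKM with LV-SNORA28. Replicate 2 was the lowest library in either group, and the groups overlapped. The log2 fold change was 0.20, with a wide 95% interval of -0.60 to 0.99 (SE 0.33), and the adjusted p in limma was 0.742. Without LV-NC replicate 2 it was -0.16, so its sign rested on 1 library.

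IL11RA (ENSG00000137070; chromosome 9, 34652162 to 34661902, plus strand), the IL11-binding subunit, measured 2.2, 1.21 and 1.48 FPKM in LV-NC libraries, against 1.57, 1.48 and 1.51 FPKM with LV-SNORA28. The LV-SNORA28 libraries were close together within the range of the LV-NC libraries. The log2 fold change was -0.04 (95% interval -0.39 to 0.30, SE 0.14) and the adjusted p in limma 0.871. The log2 fold change was 0.11 without LV-NC replicate 1. LV-NC replicate 2, the library with the highest mitochondrial share, was the lowest LV-NC library for all 5 receptors, a measured fact whose part in the receptor values was not tested.

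LIF (ENSG00000128342; chromosome 22, 30240453 to 30246759, minus strand), the ligand of LIFR, measured 40.67, 33.62 and 33.05 FPKM in LV-NC libraries, against 32.48, 31.92 and 30.15 FPKM with LV-SNORA28. There was no overlap, but the gap between them was small beside the spread within LV-NC. The means were 35.8 ± 4.24 and 31.5 ± 1.22 FPKM (SD, n = 3). The log2 fold change was -0.17 (95% interval -0.39 to 0.05, SE 0.09) and the adjusted p in limma 0.273.

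IL11 (ENSG00000095752; chromosome 19, 55364382 to 55370463, minus strand), the other ligand, measured 0.43, 0.43 and 0.63 FPKM in LV-NC libraries, against 0.7, 1.09 and 0.89 FPKM with LV-SNORA28. All LV-SNORA28 libraries were above the LV-NC libraries, at levels where the precision is unknown. In the fit without a filter the log2 fold change was 0.34 (95% interval 0.05 to 0.63, SE 0.12), and limma gave a raw p of 0.0293, or 0.268 once adjusted. For each of the 4 genes whose groups did not overlap, an exact permutation test (two-sided) gave p = 0.1, the smallest that 3 against 3 libraries allow.

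**Figure D2:**
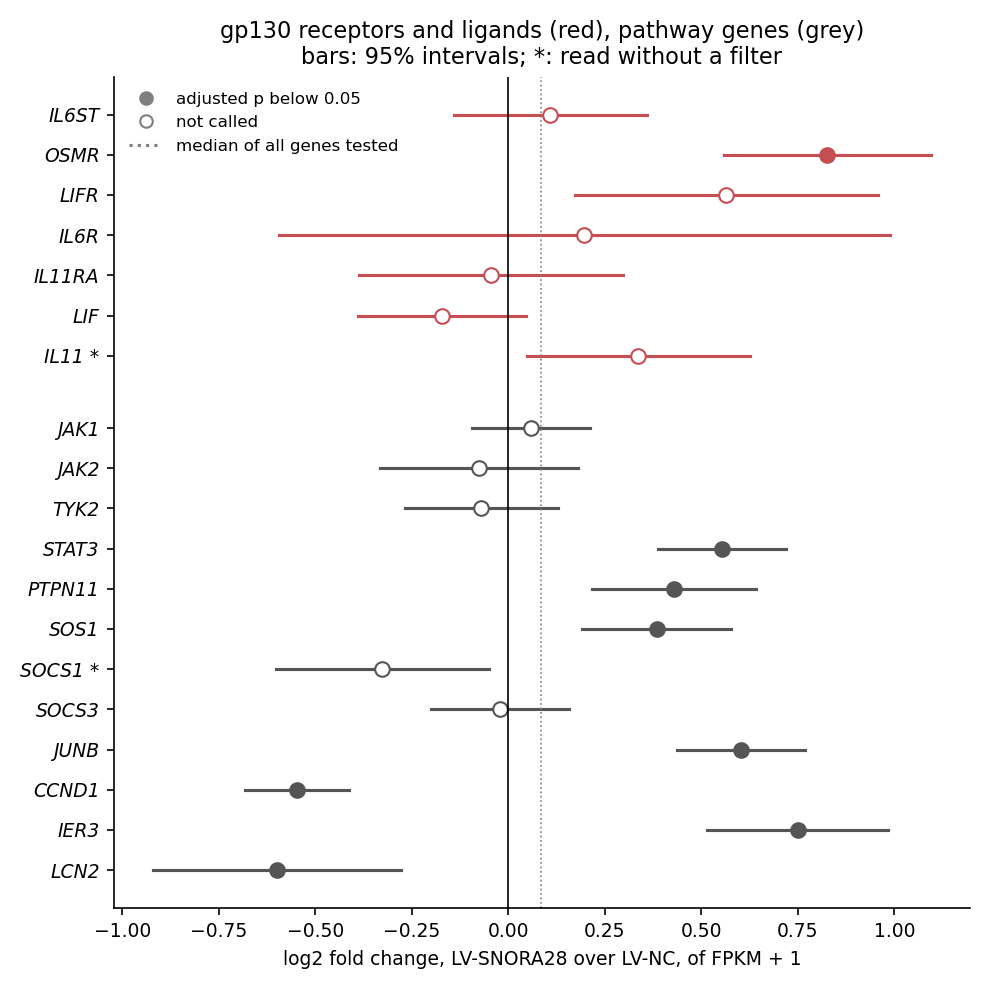
Log2 fold change of FPKM + 1, LV-SNORA28 over LV-NC (x axis), with 95% intervals from limma, for the 7 receptors and ligands (red) and 12 pathway genes named in the text (grey). Filled points had an adjusted p below 0.05, and asterisks mark genes read without a filter. The dotted line is the median of all genes tested, 0.09. OSMR is the filled red point, at 0.83.

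The level of each ligand-specific receptor was also set against gp130 within each library, since such a ratio does not depend on how libraries are scaled. The OSMR to IL6ST ratio was 1.58, 1.59 and 1.85 in LV-NC and 2.76, 2.95 and 2.93 in LV-SNORA28, a fold of 1.72. The LIFR to IL6ST ratio was 0.257, 0.125 and 0.202 in LV-NC and 0.325, 0.384 and 0.418 in LV-SNORA28, a fold of 2.01. In both the groups did not overlap, and OSMR RNA exceeded IL6ST RNA in all 6 libraries while LIFR RNA stayed below it. An exact permutation test (two-sided) gave p = 0.1 for each, the smallest possible, and 0.2 after adjustment over the 4 ratios. The IL6R to IL6ST ratio was 0.410, 0.119 and 0.542 in LV-NC and 0.520, 0.266 and 0.383 in LV-SNORA28 (exact permutation p 0.9). The IL11RA to IL6ST ratio was 0.496, 0.352 and 0.387 in LV-NC and 0.352, 0.389 and 0.330 in LV-SNORA28 (exact permutation p 0.5). Both of these overlapped between groups.

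**Figure D3:**
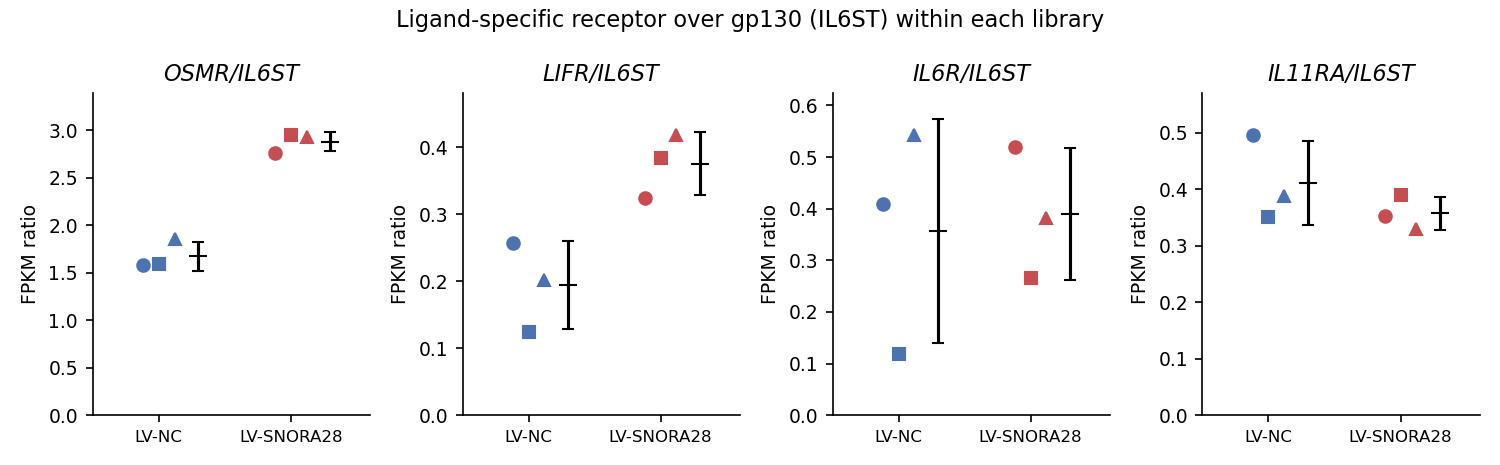
FPKM of OSMR, LIFR, IL6R and IL11RA divided by that of IL6ST in the same library (y axis, from 0), for LV-NC (blue) and LV-SNORA28 (red), with the mean and SD (n = 3) in black. The OSMR and LIFR ratios were higher in all LV-SNORA28 libraries, and the IL6R and IL11RA ratios overlapped.

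The remaining ligands and receptors of the family were read from a list of 12 genes. None of the 5 that passed the filter was called in limma, beside 8.91% of all genes tested, and their median log2 fold change was -0.06. At an unadjusted p below 0.05, which 28.0% of all genes tested reached, there was 1 of the 5, CTF1, which encodes the LIFR ligand cardiotrophin 1, named after its values were seen. CTF1 measured 1.5, 1.93 and 2.02 FPKM in LV-NC libraries, against 1.08, 1.54 and 1.14 FPKM with LV-SNORA28, overlapping (log2 fold change -0.32, adjusted p 0.140 in limma). The ligand IL6 was above 0 in 1 library only, at 0.02 FPKM, and OSM, which encodes oncostatin M, reached at most 0.07 FPKM, so the cells held almost no transcript of the ligands of IL6R and OSMR. IL27 and IL31 were listed at 0 in all libraries. The highest level on the list was that of IL27RA, a receptor that pairs with gp130 for IL27, at 8.92, 8.2 and 9.47 FPKM in LV-NC and 10.35, 9.58 and 10.1 FPKM in LV-SNORA28. The IL27RA groups did not overlap, and its log2 fold change of 0.16 had an adjusted p of 0.210 in limma.

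Among 12 kinases, STAT factors and adaptors that act at these receptors, 4 of the 10 tested rose and none fell, beside 8.91% of all genes tested that were called, with a median log2 fold change of 0.14. The same 4 were those at an unadjusted p below 0.05, beside 28.0% of all genes tested. The list was chosen with earlier results of these data known, so these counts are descriptions. STAT3, the main transcription factor of gp130 signalling, measured 6.52, 6.06 and 6.05 FPKM in LV-NC libraries, against 9.83, 8.97 and 9.95 FPKM with LV-SNORA28, a log2 fold change of 0.55 (SE 0.07, adjusted p 0.00986 in limma). The lowest LV-SNORA28 library was well above the highest LV-NC library. PTPN11, which encodes the phosphatase SHP2, rose from 31.9 ± 2.45 to 43.3 ± 3.86 FPKM (SD, n = 3), a log2 fold change of 0.43 (adjusted p 0.0358 in limma). SOS1, the RAS exchange factor, rose from 3.33 ± 0.332 to 4.64 ± 0.175 FPKM (SD, n = 3), a log2 fold change of 0.38 (adjusted p 0.0372 in limma). The calls of PTPN11 and SOS1 were lost under most alternatives. The kinases were not called: the log2 fold change was 0.06 for JAK1, -0.08 for JAK2 and -0.07 for TYK2, with adjusted p values of 0.593, 0.685 and 0.625 in limma. JAK1 measured 8.93, 8.63 and 9.41 FPKM in LV-NC libraries, against 9.02, 9.52 and 9.68 FPKM with LV-SNORA28, overlapping. GRB2, an adaptor with the highest mean of the list over all 6 libraries, was at 38.1 ± 1.13 and 38.6 ± 0.764 FPKM (SD, n = 3), with an adjusted p of 0.859 in limma, and it lay below PTPN11 in LV-SNORA28. These are RNA levels, and they say nothing of phosphorylation.

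A further list held 11 feedback inhibitors, phosphatases and sheddases that act on these receptors. None of the 9 tested was called in limma, beside 8.91% of all genes tested, and their median log2 fold change was -0.02. At an unadjusted p below 0.05, beside 28.0% of all genes tested, there was 1 of the 9, PIAS3, an inhibitor of STAT3, named after its values were seen, at 7.54 ± 0.541 FPKM in LV-NC and 9.26 ± 0.188 FPKM in LV-SNORA28 (SD, n = 3), with an adjusted p of 0.0635 in limma. SOCS3, the STAT3-induced inhibitor of gp130, measured 7.89, 8.67 and 7.83 FPKM in LV-NC libraries, against 8.16, 7.42 and 8.4 FPKM with LV-SNORA28, overlapping (log2 fold change -0.02, adjusted p 0.877). SOCS1, an inhibitor of Janus kinases, had a mean below the filter, and its values of 1.06, 0.97 and 0.83 FPKM in LV-NC lay above the 0.42, 0.54 and 0.72 FPKM of LV-SNORA28. Its log2 fold change without a filter was -0.33 (unadjusted p 0.0272, adjusted p 0.261 in limma). The study chose SOCS1 on these samples. By qRT-PCR it reported lower SOCS1 RNA with overexpression in HCT116. By western blotting it reported lower SOCS1 protein after knockdown and after overexpression alike, and it did not take SOCS1 for a key mediator. PTPN1, a phosphatase that acts on JAK2 and TYK2 and the highest gene of the list, measured 27.3, 27.23 and 30.03 FPKM in LV-NC libraries, against 29.14, 29.71 and 29.77 FPKM with LV-SNORA28, with an adjusted p of 0.523.

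Of 23 textbook STAT3 response genes, 18 were tested and 4 were called, 2 higher and 2 lower, beside 8.91% of all genes tested, with a median log2 fold change of 0.07. At an unadjusted p below 0.05 there were 9 of the 18, beside 28.0% of all genes tested. Among them was BIRC5, which encodes survivin, named after its values were seen. From qRT-PCR after knockdown and overexpression, the study reported positive regulation of survivin by SNORA28. BIRC5 measured 6.7, 4.63 and 7.94 FPKM in LV-NC libraries, against 9.9, 11.37 and 12.09 FPKM with LV-SNORA28, without overlap (log2 fold change 0.73, raw p 0.00468, adjusted p 0.0510 in limma), and it passed the threshold of the study. JUNB, an AP-1 subunit, measured 29.54, 31.54 and 27.09 FPKM in LV-NC libraries, against 45.55, 44.27 and 45.46 FPKM with LV-SNORA28, a log2 fold change of 0.60 (adjusted p 0.0076 in limma). IER3, a stress-responsive survival gene and the highest of the list, measured 226.97, 235.93 and 202.62 FPKM in LV-NC libraries, against 330.96, 388.14 and 403.3 FPKM with LV-SNORA28, a log2 fold change of 0.75 (adjusted p 0.0105 in limma). The opposite direction was seen for CCND1, which encodes cyclin D1, at 175.78, 176.95 and 190.37 FPKM in LV-NC and 122.47, 124.29 and 123.61 FPKM in LV-SNORA28, a log2 fold change of -0.55 (adjusted p 0.00583 in limma). LCN2, which encodes the iron-binding lipocalin 2, measured 2.03, 1.84 and 1.31 FPKM in LV-NC libraries, against 0.69, 1 and 0.69 FPKM with LV-SNORA28, a log2 fold change of -0.60. It passed the filter only through LV-NC, and its adjusted p in limma was 0.0434 with the filter and 0.127 without, so its call is given as a description. Over the alternatives its log2 fold change ran from -1.03 to -0.52, and it was called in 5 of 13. Over the 4 lists, 8 of 42 genes tested were called (19.0%), LCN2 included, beside 8.91% of all genes tested. Of these 6 were higher and 2 lower, and the median log2 fold change was 0.04, beside 0.09. These counts are descriptions of the lists.

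LIFR and OSMR share a stretch of chromosome 5, so the genes around them were read as well. Within 500000 bases of the span from LIFR to OSMR the annotation lists 22 other genes, of which 10 were at 0 in all libraries and 10 were above 0 with means below 1 FPKM and no value above 0.33 FPKM. Of these low genes only OSMR-DT, next to the OSMR start on the opposite strand, had groups that did not overlap. Named after its values were seen, it measured 0.01, 0.02 and 0.02 FPKM in LV-NC libraries, against 0.06, 0.07 and 0.06 FPKM with LV-SNORA28. These values are near the floor (adjusted p 0.139 in limma without a filter). The genes with means above 1 FPKM were RICTOR and DAB2. RICTOR, the subunit that defines the mTORC2 complex, overlaps the end of OSMR by 7677 bases on the opposite strand, and the sources used here do not say whether counting used the strand. It measured 2.68, 1.05 and 1.94 FPKM in LV-NC libraries, against 1.67, 1.82 and 1.67 FPKM with LV-SNORA28, and its groups overlapped. Its log2 fold change was -0.05 (adjusted p 0.906 in limma). The part of the shared 7677 bases in the OSMR and RICTOR values was not tested. DAB2, an endocytic adaptor, measured 1.4, 1.11 and 1.32 FPKM in LV-NC libraries, against 1.45, 1.52 and 1.44 FPKM with LV-SNORA28. Its groups did not overlap, and its log2 fold change of 0.12 had an adjusted p of 0.410 in limma.

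The genes most like each member over the 6 libraries were found by Pearson's r of log2(FPKM + 1) among 12075 other genes, as a description only, since the points share libraries and 2 groups. For OSMR they were UNC119B (r 0.9999) and CCDC127 (r 0.9988), and 493 genes had an r of at least 0.95. For LIFR they were CCDC50 (r 0.9946) and WWP1 (r 0.9944), with 305 genes at or above 0.95. IL6ST was closest to CNOT4 (r 0.9917), with 68 genes at or above 0.95. IL6R was closest to INCENP (r 0.9895) and MTR (r 0.9849), with 37, and IL11RA to SNAPC4 (r 0.9955) and PLD2 (r 0.9925), with 48. LIF was closest to AP1G2 (r 0.996) and TEPSIN (r 0.9911), with 34.

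The call of OSMR was kept under all 14 alternatives, each library left out in turn among them, and that of LIFR was absent under all 13 in which it was tested. Leaving out 1 library moved the log2 fold change of OSMR between 0.72 and 0.89 (adjusted p 0.0254 to 0.0482 in limma) and that of LIFR between 0.42 and 0.71 (adjusted p 0.0538 to 0.219 in limma). The value of LIFR was lowest without LV-NC replicate 2, the library in which it was at 0.43 FPKM.

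**Figure D4:**
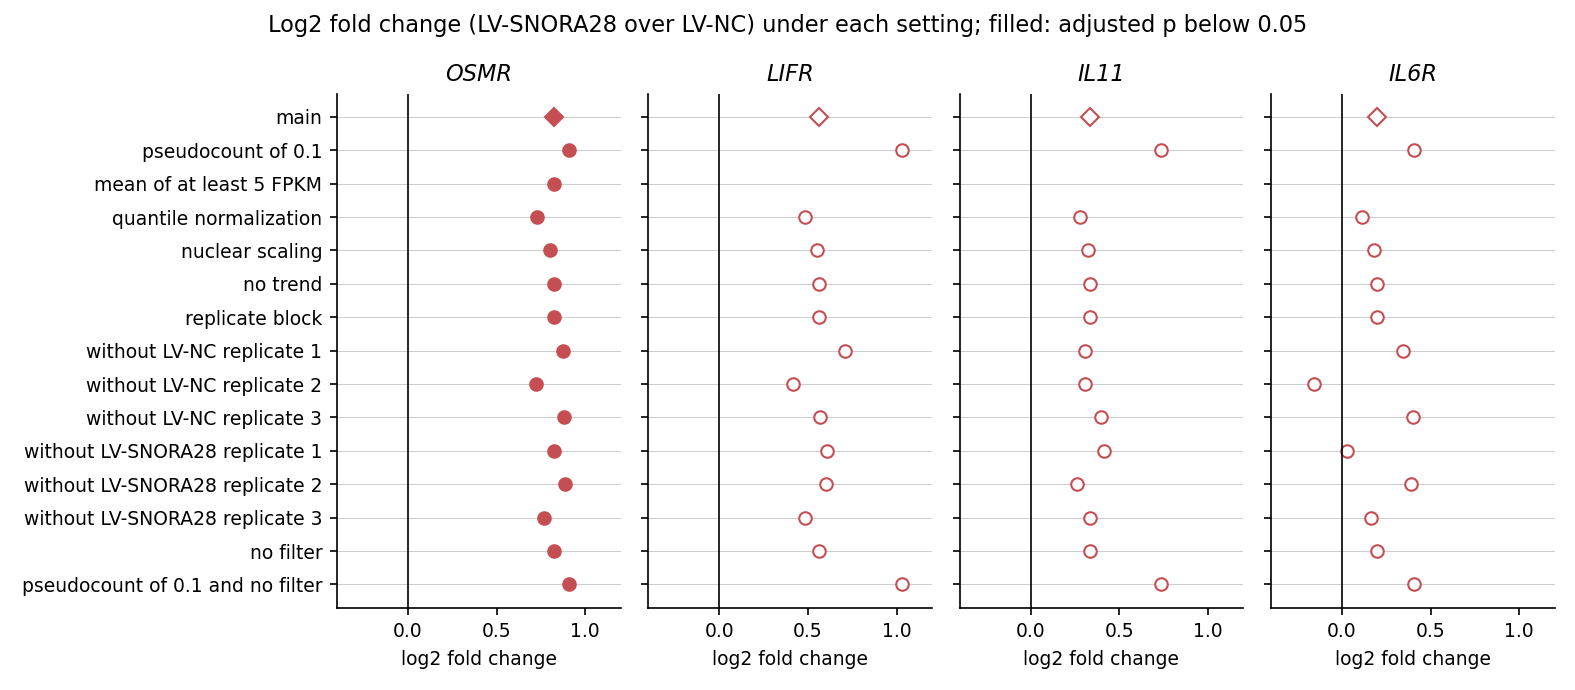
Log2 fold change of OSMR, LIFR, IL11 and IL6R (x axis) as reported (diamond) and under each alternative (circles). Filled symbols had an adjusted p below 0.05 in limma. OSMR is filled in every row and LIFR, IL11 and IL6R in none, and the IL6R circle without LV-NC replicate 2 lies below 0, at -0.16.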

How the data were processed

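The authors deposited 1 table of FPKM per gene for each of 6 libraries. Per the labels, libraries were made from oligo(dT)-purified RNA by the dUTP method and sequenced in pairs. The submitters' processing notes name cutadapt 1.9, HISAT2 2.2.1, StringTie 2.1.6, DESeq2, edgeR and hg38, without roles. The annotation release, the use of strand and the mapped totals are not given in the sources used here. Of 60612 genes, 60401 took a symbol from GENCODE release 44 (GRCh38). Any 2 libraries differed in at least 26342 genes. In 5097 single-exon genes of 400 to 800 bases, 38.5% to 45.6% of low values lay within 0.1 of a whole step. The step was the one that gave the highest share in each library, while the 20% of even spacing holds for a fixed step. Most low values lay off a whole step, so reads were not recovered, depth is unknown and no count model was run.

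Groups came from the sample titles. FPKM was tested as log2(FPKM + 1) in limma 3.58.1 (R 4.3.3; lmFit, eBayes with trend, two-sided, Benjamini-Hochberg) over genes whose mean reached 1 FPKM, and the fit was tested on simulated data. This scale understates changes of low genes. Exact permutation tests used SciPy 1.17.1 in Python 3.11.15.

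The members and lists were chosen with earlier results of these data known. Named were the 7 members, list genes with an adjusted p below 0.05, the highest gene of each list, STAT3, JAK1, JAK2, TYK2, SOCS1, SOCS3, genes above 1 FPKM around LIFR and OSMR, and the 2 genes most correlated with each member above 1 FPKM. The results of 2 genes that this rule names are not reported here. Alternatives were a pseudocount of 0.1, means of at least 5 FPKM, no filter, no trend, quantile normalization, scaling to nuclear genes, a replicate block and each library left out. The pseudocount of 0.1 without a filter was added after the data were seen. Replicate numbers did not pair the libraries.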

Additional observations from a re-analysis of the deposited data

How the results depend on the processing

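The number of genes called over all genes was 1076, and it was 510 with the replicate number as a block, 397 with no filter, 466 with a pseudocount of 0.1 and no filter, and 279 to 628 with 1 library left out. Same-numbered libraries did not deviate together (r of -0.04, 0.09 and 0.01), so the replicate block has no basis in pairing. Under it OSMR kept its log2 fold change of 0.83 and its call (adjusted p 0.0346). Quantile normalization gave 451 higher and 375 lower calls, and scaling to nuclear genes 615 and 264, beside 822 and 254.

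Members at the threshold of the study numbered 3 with a pseudocount of 0.1, with or without a filter, and 1 to 2 with 1 library left out. The share of all genes at that threshold was not counted under these alternatives. Members called at the adjusted p remained at 1 throughout, beside 279 to 1075 calls over all genes under the alternatives. Of 42 other pathway genes tested, 5 were called with no filter, beside 397 of all 32761 genes tested (1.21%). With a pseudocount of 0.1 and no filter 5 were called, beside 466 of 32761. With 1 library left out 4 to 7 were called, beside 279 to 628 of 12076. STAT3, JUNB, IER3 and CCND1 were called under all 14 alternatives, PTPN11 under 4 of 14, SOS1 under 3 of 13 and LCN2 under 5 of 13.

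Signs turned for IL11RA (0.11), JAK2 (0.0161), RICTOR (0.15) and TYK2 (0.0046) without LV-NC replicate 1, for IL6R (-0.16) and SOCS3 (0.02) without LV-NC replicate 2, for SOCS3 (0.0246) without LV-SNORA28 replicate 2, and for JAK1 (-0.0339) under quantile normalization. With 1 library left out the values ran down to -0.132 for JAK2, -0.275 for RICTOR, -0.0548 for SOCS3 and -0.124 for TYK2. None of these was called. The cause was not tested.

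With 1 library left out the log2 fold change ran from 0.04 to 0.19 for IL6ST, -0.16 to 0.40 for IL6R, -0.16 to 0.11 for IL11RA, -0.22 to -0.08 for LIF and 0.26 to 0.41 for IL11. The log2 ratio to IL6ST differed by 0.75 to 0.86 for OSMR, 0.72 to 1.24 for LIFR, -0.33 to 0.76 for IL6R and -0.30 to -0.05 for IL11RA. Depth is unknown, so the precision of LIFR, IL11 and SOCS1 near 1 FPKM rests on the spread of 3 libraries. A mean of at least 5 FPKM left only OSMR and LIF of the members to be tested.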
